A study of Mus musculus with 4 samples.

Results

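The xenobiotic cytochrome P450 (P450) genes of families 1 to 3 were examined in liver RNA from mice with diet-induced steatohepatitis. Members were all gene symbols that start with Cyp, continue with 1, 2 or 3, a single lower-case letter and a number, are not marked as pseudogenes, and averaged 0.5 FPKM or more across all 4 libraries. FPKM is the number of sequenced fragments scaled by transcript length and by the library's mapped fragments, so it allows levels to be compared between genes. Of 60 matching symbols, 37 were members, among 12299 genes that passed the same minimum and 24346 listed symbols. They belonged to 13 subfamilies, of which Cyp2c held 12 genes, Cyp2d 6, Cyp2a and Cyp3a 4 each, Cyp2j 3, and Cyp1a, Cyp1b, Cyp2b, Cyp2e, Cyp2f, Cyp2g, Cyp2r and Cyp2u 1 each. The rule used levels over all libraries together and no difference between the groups.

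Both groups were male C57BL/6 mice, young adults at the start, that received a steatohepatitis-inducing (NASH) diet rich in fat, cholesterol and bile salt for 3 weeks. In the 7KC group (n = 2 libraries) the diet also contained 7-ketocholesterol (7KC), an oxidation product of cholesterol, and in the control group (n = 2 libraries) it did not. There was no group on a normal diet, so every level below is that of a liver under the NASH diet. The labels number the libraries of each group but do not say that each came from a separate mouse, so p-values measure only the spread between these samples, which may be technical.

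P450 enzymes are heme proteins of the endoplasmic reticulum that insert an oxygen atom into drugs, toxicants, steroids, fatty acids and sterols, with electrons delivered by the reductase Por. Hepatocytes make most of the body's supply, and many family members are denser in hepatocytes around the central vein than in those around the portal vein. The aryl hydrocarbon receptor (Ahr) is known to induce family 1 genes, the constitutive androstane receptor (CAR, Nr1i3) Cyp2b and Cyp2c genes, and the pregnane X receptor (PXR, Nr1i2) Cyp3a genes, and several mouse members are sex-biased under growth hormone control.

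The summed level of the 37 members was lower in both 7KC libraries than in either control library. Of these genes, 28 (75.7%) had a lower fitted level in the 7KC group, as did 53.9% of all genes. With libraries scaled to the same sum, 23 members did. Cyp2c29, Cyp2c54, Cyp2e1, Cyp1a2 and Cyp3a25 were among the lower ones, and the Cyp2a genes lay on the other side of 0. No member passed the test across all genes. The gap between the 2 control libraries was wide for Cyp2e1, Cyp1a2 and Cyp2c29 and narrow for Cyp3a25. This gap was larger than the group difference for 22 of the 37 members (59.5%, against 44.3% of all genes).

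Levels spanned from a mean of 0.53 FPKM for Cyp2a4 to 4525 FPKM for Cyp2e1. There were 17 members above 100 FPKM, 19 between 1 and 100 FPKM and 1 below 1 FPKM. Cyp2e1, which oxidizes ethanol, paracetamol and acetone, and Cyp3a11, the main CYP3A enzyme of mouse liver, together made up 51.1% and 56.9% of the members' summed FPKM in the control group, compared with 49.7% and 52.8% in the 7KC group. The next most abundant, by mean level over the 4 libraries, were Cyp2c29 (767 FPKM), Cyp2d9 (732 FPKM), Cyp2d26 (505 FPKM) and Cyp2a5 (478 FPKM). Over the 4 libraries, the range of Cyp2d26 overlapped that of Cyp2a5, and the range of Cyp2c29 that of Cyp2d9. This compares genes with each other, not the groups. At the lower limit, Cyp2c69 lay just outside with a mean of 0.496 FPKM. The other 22 symbols below the minimum included 13 listed at 0 in every library, such as Cyp2b13, Cyp3a41a and Cyp3a41b, which are known as female-biased genes. Of 9 female-biased P450 genes, 2 were members, Cyp2a4 and Cyp2c40.

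**Figure D1:**
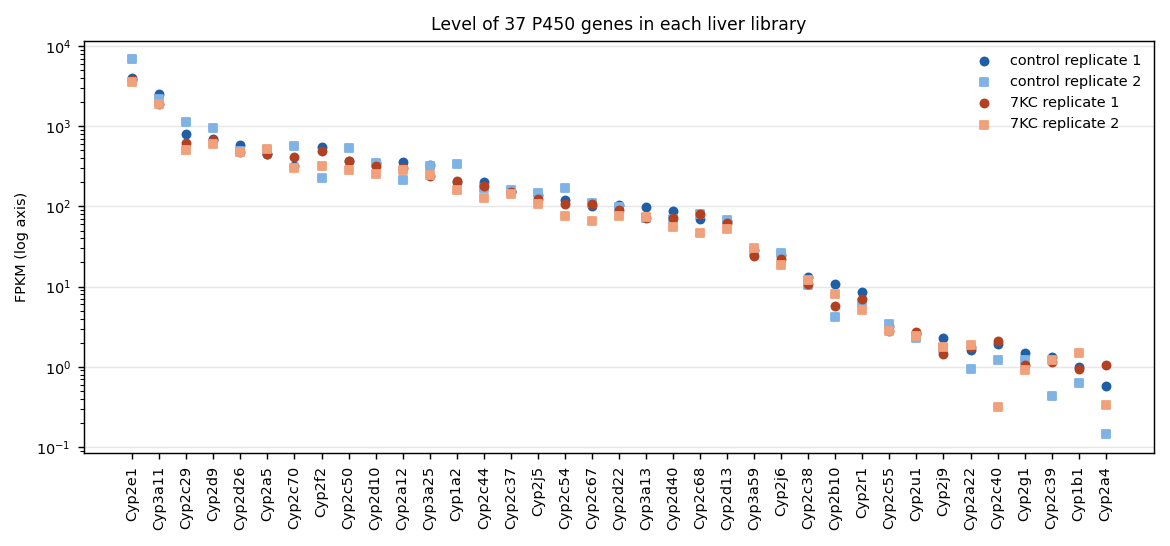
Level in FPKM on a log axis of each of the 37 P450 genes, ordered by mean level, with circles for replicate 1 and squares for replicate 2 of the control group (blue) and the 7KC group (red). The points of Cyp2e1 and Cyp3a11 stand above those of every other gene in each library, and the largest vertical gaps below 10 FPKM belong to Cyp2c40 and Cyp2a4.

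The stretch of 150 bases before the RefSeq transcription start (GRCm38.p6) is shown for 5 members: the most abundant gene of subfamilies 2e, 3a, 2c, 1a and 2f, which include genes that differed in opposite directions between the control libraries (Cyp2e1, Cyp2c29 and Cyp1a2 against Cyp2f2). Capitals mark a match to TATAAA, or in Cyp3a11 to CAAAGTCCA, a letter string bound by the hepatocyte factor HNF4A.
Cyp2e1, chr7:140763669-140763818, plus strand: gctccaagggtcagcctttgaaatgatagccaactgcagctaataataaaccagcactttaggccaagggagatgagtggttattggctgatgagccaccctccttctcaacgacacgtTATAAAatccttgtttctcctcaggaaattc
Cyp3a11, chr5:145879855-145880004, minus strand: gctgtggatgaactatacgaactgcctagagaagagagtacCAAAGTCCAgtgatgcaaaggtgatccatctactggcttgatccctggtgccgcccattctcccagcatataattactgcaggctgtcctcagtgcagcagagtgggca
Cyp2c29, chr19:39286935-39287084, plus strand: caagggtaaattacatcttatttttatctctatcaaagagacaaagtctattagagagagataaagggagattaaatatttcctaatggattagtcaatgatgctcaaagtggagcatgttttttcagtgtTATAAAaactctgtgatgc
Cyp1a2, chr9:57683656-57683805, minus strand: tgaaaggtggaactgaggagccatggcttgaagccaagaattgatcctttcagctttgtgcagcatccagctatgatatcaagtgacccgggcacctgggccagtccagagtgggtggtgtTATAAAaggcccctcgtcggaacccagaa
Cyp2f2, chr7:27119805-27119954, plus strand: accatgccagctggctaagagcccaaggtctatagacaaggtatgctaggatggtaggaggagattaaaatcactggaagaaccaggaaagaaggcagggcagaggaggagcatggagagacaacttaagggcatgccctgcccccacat
Each is written 5′ to 3′ on the strand of its gene. Counting from the start, the first base of TATAAA lay at −31 in Cyp2e1, −29 in Cyp1a2 and −19 in Cyp2c29, and that of CAAAGTCCA at −109 in Cyp3a11. Cyp2f2 held none of the 6 letter strings that were searched.

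RefSeq promoters were matched for 31 of the 37 members, and 6 letter strings were searched on both strands of the same 150 bases. Each member entered with 1 promoter, while the 32851 promoters of all genes could include several of the same gene. TATAAA was in 16 of the 31 (51.6%) and in 7.57% of 32851 promoters of all genes. CAAAGTCCA was in 5 of 31 (16.1%), namely Cyp2c40, Cyp2c67, Cyp2c68, Cyp2c70 and Cyp3a11, against 0.271% of all promoters. TTGCNNAA, a C/EBP-type string, was in 7 (22.6%, against 5.46%). The nuclear receptor half-site AGGTCA was in 2 (6.45%, against 8.58%), the Ahr core GCGTG in 3 (9.68%, against 20.5%) and the HNF1 half-site GTTAAT in 1 (3.23%, against 3.71%). These are matches of letters in a short window, many of them in neighboring copies of one ancestral gene, and no binding was measured.

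By position (mm10, GENCODE M21 annotation), the 11 Cyp2c members with a matched symbol lay together on chromosome 19 and the Cyp2d members with a matched symbol on chromosome 15. Cyp2a, Cyp2b, Cyp2f and Cyp2g genes lay near each other on chromosome 7, Cyp2j genes on chromosome 4 and Cyp3a genes on chromosome 5. Cyp2e1 spans chr7:140763739-140774987 on the plus strand, and Cyp3a11 spans chr5:145854426-145879964 on the minus strand. Cyp2c29 spans chr19:39269405-39330713 on the plus strand. Cyp1a2 spans chr9:57676937-57683703 on the minus strand, Cyp2f2 chr7:27119909-27133660 on the plus strand, and Cyp3a25 chr5:145977194-146009618 on the minus strand. For every gene whose sequence is shown above, the span begins upstream of the RefSeq start. Part or all of each stretch shown thus lies inside the annotated gene. The deposited values are totals per gene over its exons.

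Neighboring copies share sequence, which limits how well single-end reads of 75 bases can be assigned to one of them. Of 35 members with annotated transcripts, 14 shared more than 10% of their 75-base words with another gene and 9 shared none. Cyp2c40 shared 57.1% of its words, most often with Cyp2c69, Cyp2c67 shared 36.0%, Cyp2c68 28.5%, Cyp2d10 26.7%, and Cyp2a5 25.5%. For Cyp2c29 (0.527%), Cyp2e1 (2.96%), Cyp1a2 (3.38%) and Cyp3a11 (3.66%) the share was small, and Cyp2f2, Cyp2j5, Cyp2c70 and Cyp3a13 shared no word. How the multi-mapped reads were divided is not given in the sources used here, so the levels of the first set are uncertain, and those of Cyp3a25 (11.2%, with Cyp3a59) less so.

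**Figure D2:**
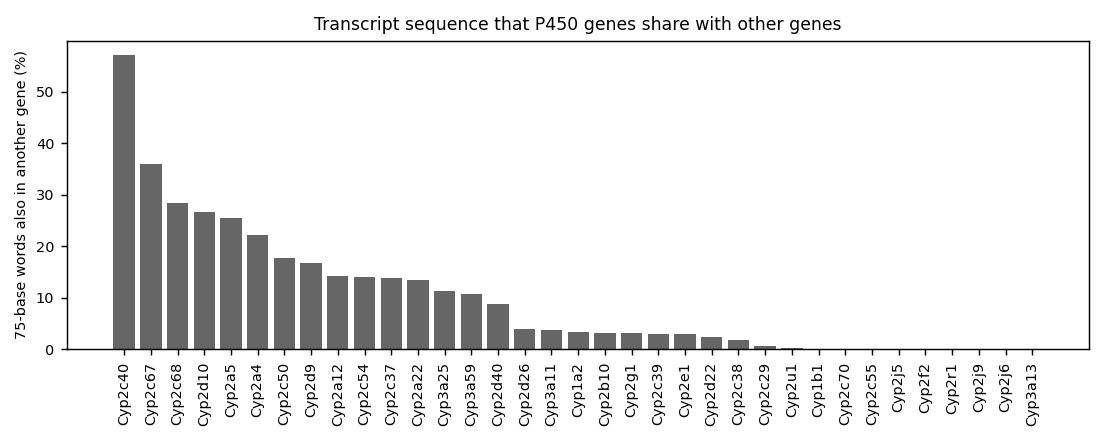
Percentage of the 75-base words in the transcripts of each of 35 P450 genes that also occur in transcripts of another gene, as bars from 0. Cyp2c40 has the highest bar at 57.1%, and 9 genes have none.

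The 4 libraries held an estimated 13600000 to 17100000 reads, recovered from the steps between low FPKM values. Of values of up to 10 reads, 71.6% to 72.9% came within 0.1 of a whole read at this depth, against 14.0% to 14.5% at the median of the other depths tried. The minimum of 0.5 FPKM corresponded to 10.6 to 13.3 reads for a gene of median length. The sum of FPKM over all genes differed between libraries, with 685000 and 671200 in the control group and 619800 and 557100 in the 7KC group. Markers of liver cell types differed between the groups. Of all tested genes, 53.9% had a fitted change below 0, and 27.4% were lower and 25.1% higher in the 7KC libraries without overlap. Of 13 listed hepatocyte markers, 12 had a lower fitted level in the 7KC group (median log2 change −0.52), 11 of them without overlap between the groups' libraries, and their summed level was 91270 to 103800 FPKM in the control and 61360 to 78980 FPKM in the 7KC libraries. Of 13 macrophage and monocyte markers, 11 were higher (median 0.92) and their sum was 700 to 929 FPKM in the control and 1515 to 2366 FPKM in the 7KC libraries. All 8 tested T and NK cell markers were higher in the 7KC libraries without overlap, with sums of 11.6 to 15.9 against 35.3 to 37.6 FPKM, and 1 of them, Il2rb, passed the test. The sums were 2.26 to 6.68 against 6.40 to 6.41 FPKM for B cell markers, 18.2 to 33.5 against 39.0 to 42.1 FPKM for neutrophil markers and 96.4 to 115 against 89.3 to 129 FPKM for endothelial markers. They were 54.1 to 82.9 against 86.1 to 136 FPKM for stellate cell and fibroblast markers, with 5 fitted changes above 0 and 3 below. Col1a1 and Col1a2 were higher and Reln and Acta2 lower, each without overlap. The cholangiocyte sum, 57.7 to 89.4 against 168 to 368 FPKM, was nearly all Spp1 (54.1 to 85.6 against 165 to 363 FPKM), while Krt19 was lower without overlap (log2 change −0.22). None of these listed markers was at 0 in any library. In bulk liver, fewer cells of a type and less RNA per cell cannot be told apart, and the part of these marker levels in the P450 values was not tested.

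The comparison of the 7KC group with the control group addressed whether the dietary oxysterol changed the hepatic P450 program. The members' FPKM summed to 12760 and 15860 in the control group, compared with 11350 and 10300 in the 7KC group (14310 ± 2190 against 10830 ± 740, mean ± SD, n = 2 each). The ratio of the means was 0.757. The exact 2-sided permutation p was 0.333, the smallest that 2 libraries against 2 can give. As a share of all FPKM in a library, however, the members made up 1.86% and 2.36% in the control group and 1.83% and 1.85% in the 7KC group. Set against the summed hepatocyte markers, they came to 12.3% and 17.4% in the control group and 14.4% and 16.8% in the 7KC group, so on that scale the groups overlapped. A large part of that marker sum was Alb, at 41547 and 25202.5 FPKM in the control group and 26969 and 18988 FPKM in the 7KC group. By share of all FPKM, several subfamilies with lower 7KC sums were no longer lower without overlap. Cyp2e (0.578% and 1.02% against 0.608% and 0.637%) and Cyp3a (0.44% and 0.389% against 0.356% and 0.401%) overlapped between the groups. So did Cyp2c (0.315% and 0.437% against 0.333% and 0.281%). Cyp2d made up 0.273% and 0.303% against 0.273% and 0.273%. To these digits control replicate 1 equaled both 7KC libraries, so Cyp2d did not stay lower without overlap either. The shares of Cyp2j and Cyp2g stayed lower in the 7KC group without overlap.

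With limma (log2(FPKM + 0.5), Benjamini-Hochberg adjustment over all 12299 genes, threshold 0.05), 0 of the 37 members passed, where 62 of all tested genes (0.504%) did. At an unadjusted p under 0.05, 3 members were lower, Cyp3a25, Cyp2c29 and Cyp2c54 (8.11% of the members, against 5.81% of all genes), and none was higher (against 12% of all genes). A fitted log2 change below 0 was found in 28 members (75.7%) and in 53.9% of all genes. In 15 members (40.5%) both 7KC libraries lay below both control libraries, as in 27.4% of all genes, and in 1 member, Cyp2a22 (2.70%), both lay above, as in 25.1% of all genes. The members' median log2 change was −0.26, and that of all genes −0.03. Scaling each library to the same sum moved the medians to −0.07 and 0.16, the members with a change below 0 to 23 and above 0 to 14, and the members without overlap to 7 lower (7.86% of all genes) and 4 higher (46.5% of all genes).

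**Figure D3:**
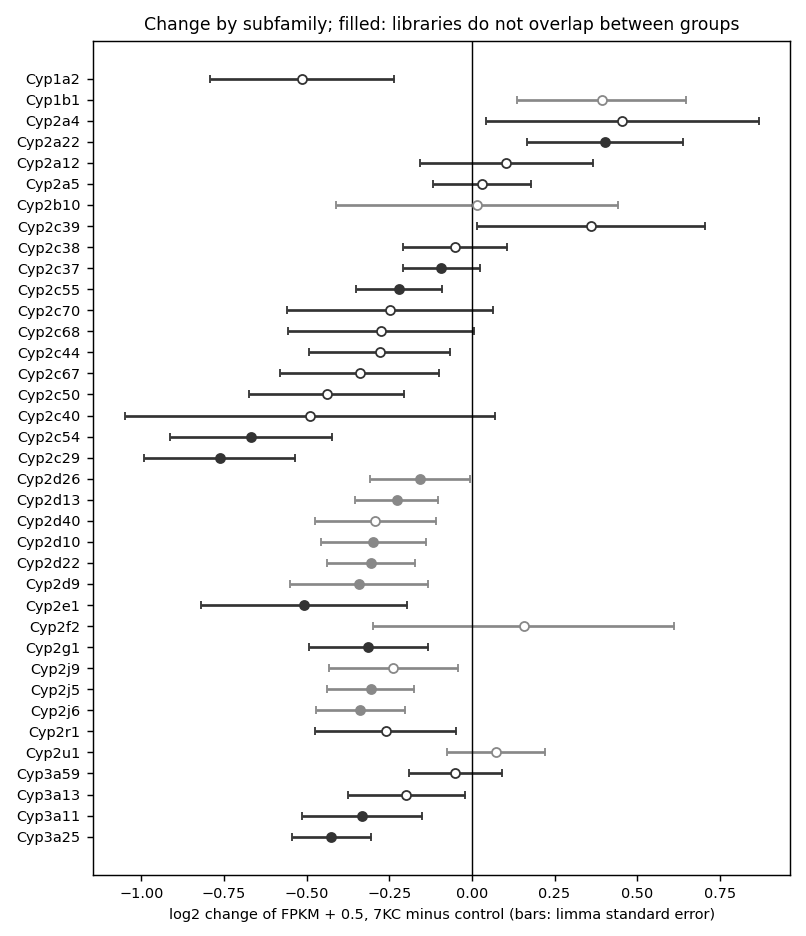
Fitted log2 change of FPKM + 0.5, 7KC minus control, of each member, grouped by subfamily with alternating shades, with limma standard errors as bars. Filled points mark genes whose libraries did not overlap between groups, 15 to the left of 0 and 1, Cyp2a22, to the right.

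Among single genes, Cyp2c29, an enzyme that oxidizes arachidonic acid and drugs and responds to CAR, had the lowest fitted log2 change. Its level was 800.2 and 1136 FPKM in the control group, compared with 626 and 504 FPKM in the 7KC group. The groups did not overlap, and the 7KC mean was 0.584 times the control mean (log2 change −0.76, SE 0.23, limma adjusted p = 0.192). Cyp2c54, a neighboring epoxygenase, had 121 and 172 FPKM in the control group and 108 and 75.7 FPKM in the 7KC group (−0.67, SE 0.24, limma adjusted p = 0.253). It shared 14.1% of its 75-base words with other genes, mostly Cyp2c50.

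The Cyp2c subfamily summed to 2155 and 2934 FPKM in the control group, compared with 2063 and 1566 FPKM in the 7KC group (2544 ± 551 against 1814 ± 351, mean ± SD, n = 2, ratio 0.713, exact permutation p = 0.333). Of the 12 members 11 had a fitted change below 0, with a median of −0.28, and 4 did not overlap: Cyp2c29, Cyp2c54, Cyp2c55 and Cyp2c37. In all genes, 53.9% had a change below 0 and 27.4% were lower without overlap. Cyp2c50 had 366 and 532 FPKM in the control group and 369 and 287 FPKM in the 7KC group. One 7KC library thus lay between the control libraries. Cyp2c70, which makes the muricholic acids of mouse bile, had 320.0 and 561 FPKM in the control group and 419 and 303 FPKM in the 7KC group (log2 change −0.25, SE 0.31, limma adjusted p = 0.713), and without control replicate 2 its change was 0.16. Cyp2c55, a low-level enzyme also found in the colon, had 3.26 and 3.44 FPKM against 2.82 and 2.79 FPKM (−0.22, limma adjusted p = 0.425). Cyp2c39, at 0.437 to 1.34 FPKM, was the member with a change above 0 (0.36). The other Cyp2c members, Cyp2c37, Cyp2c38, Cyp2c40, Cyp2c44, Cyp2c67 and Cyp2c68, had changes from −0.49 (Cyp2c40) to −0.05 (Cyp2c38), with limma adjusted p of 0.499 or more.

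For Cyp2e1, the sole gene of its subfamily, the level was 3962 and 6822 FPKM in the control group, compared with 3766 and 3551 FPKM in the 7KC group (5392 ± 2022 against 3659 ± 152, mean ± SD, n = 2). The 7KC libraries were the lower ones, but control replicate 1 stood far closer to them than to control replicate 2. The ratio of the means was 0.679 and the log2 change −0.51 (SE 0.31, limma adjusted p = 0.445). Cyp1a2, the caffeine-oxidizing Ahr target, was at 203 and 335 FPKM in the control group and 211 and 158 FPKM in the 7KC group, with overlap (−0.51, SE 0.28, limma adjusted p = 0.392). Cyp1a1, the most Ahr-inducible member of the family, was below the minimum, at 0.477 to 0.505 FPKM in the control and 0.179 to 0.542 FPKM in the 7KC libraries. Cyp1b1, an estrogen-hydroxylating enzyme made mainly outside hepatocytes, had 0.99 and 0.63 FPKM in the control group and 0.94 and 1.51 FPKM in the 7KC group (0.39, limma adjusted p = 0.467).

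In summed FPKM, the Cyp3a subfamily was lower with little spread in the 7KC group. It had 3014 and 2612 FPKM in the control libraries against 2209 and 2235 FPKM in the 7KC libraries (2813 ± 284 against 2222 ± 18.5, mean ± SD, n = 2, ratio 0.790, exact permutation p = 0.333). As a share of all FPKM the groups overlapped, as given above. Cyp3a25 had the smallest p of all members, with 329 and 319 FPKM in the control group and 237 and 246 FPKM in the 7KC group. Its replicates lay close together in both groups and the means differed by a factor of 0.744 (log2 change −0.43, SE 0.12, limma adjusted p = 0.174). Cyp3a11, the PXR target that carries most of the subfamily's transcript, had 2557 and 2194 FPKM against 1875 and 1885 FPKM (−0.33, SE 0.18, limma adjusted p = 0.392). Cyp3a13 had 98.5 and 71.2 FPKM against 72.0 and 73.8 FPKM and Cyp3a59 ranged from 24.1 to 29.9 FPKM, both with overlap. Without control replicate 1 the change of Cyp3a13 was 0.03.

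Cyp2d is the subfamily that in people metabolizes many antidepressants and opioids. All 6 members had a fitted change below 0, from −0.34 (Cyp2d9) to −0.16 (Cyp2d26), and 5 did not overlap. A change below 0 was found in 53.9% of all genes, and 27.4% were lower without overlap. The Cyp2d sum was 1868 and 2035 FPKM in the control group and 1689 and 1522 FPKM in the 7KC group (ratio 0.823, exact permutation p = 0.333). As a share of all FPKM it did not stay lower without overlap, as given above. Cyp2d9, a male-biased testosterone hydroxylase, had 685 and 961 FPKM in the control group, compared with 675 and 606 FPKM in the 7KC group, so the upper 7KC library lay just below the lower control library. Cyp2d22 had 106 and 98.9 FPKM against 90.2 and 75.8 FPKM (log2 change −0.31, SE 0.13, limma adjusted p = 0.315), and Cyp2d10 had 344 and 351 FPKM against 318 and 251 FPKM. Cyp2d26 had 580.1 and 487 FPKM against 472 and 481 FPKM, and with libraries scaled to the same sum its change was 0.05. Cyp2d13 (66.7 and 67.3 against 62.0 and 52.6 FPKM), which RefSeq lists as a transcribed pseudogene, and Cyp2d40 (55.5 to 86.6 FPKM) made up the rest.

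The Cyp2j genes encode epoxygenases of arachidonic acid. The subfamily summed to 167 and 174 FPKM in the control group and 149 and 127 FPKM in the 7KC group (171 ± 5.33 against 138 ± 15.8, mean ± SD, n = 2, ratio 0.807, exact permutation p = 0.333). Cyp2j5 had 140 and 146 FPKM against 125 and 106 FPKM (log2 change −0.31, SE 0.13, limma adjusted p = 0.309) and Cyp2j6 had 24.9 and 26.6 FPKM against 22.3 and 18.4 FPKM (−0.34, SE 0.14, limma adjusted p = 0.285). Neither overlapped, and Cyp2j9, at 1.42 to 2.28 FPKM, did.

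The Cyp2a subfamily did not share this direction. Its sum was 814 and 701 FPKM in the control group, compared with 754 and 807 FPKM in the 7KC group (757 ± 79.6 against 781 ± 37.2, mean ± SD, n = 2, ratio 1.03, exact permutation p = 1.0), and all 4 genes had a fitted change above 0. Cyp2a5, the coumarin hydroxylase, was at 456 and 489 FPKM against 446 and 521 FPKM (log2 change 0.03, SE 0.15). Cyp2a12, a hydroxylase of testosterone and bile acids, had 356 and 211 FPKM against 306 and 284 FPKM (0.10, SE 0.26). Both overlapped between the groups, and leaving out control replicate 2 turned the change of Cyp2a12 to −0.27. Cyp2a22 was at 1.64 and 0.93 FPKM in the control group and 1.76 and 1.86 FPKM in the 7KC group (0.40, SE 0.24, limma adjusted p = 0.426). It was the member with higher 7KC libraries without overlap, though control replicate 1 lay close to them. Cyp2a4 ranged from 0.144 to 1.06 FPKM.

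**Figure D4:**
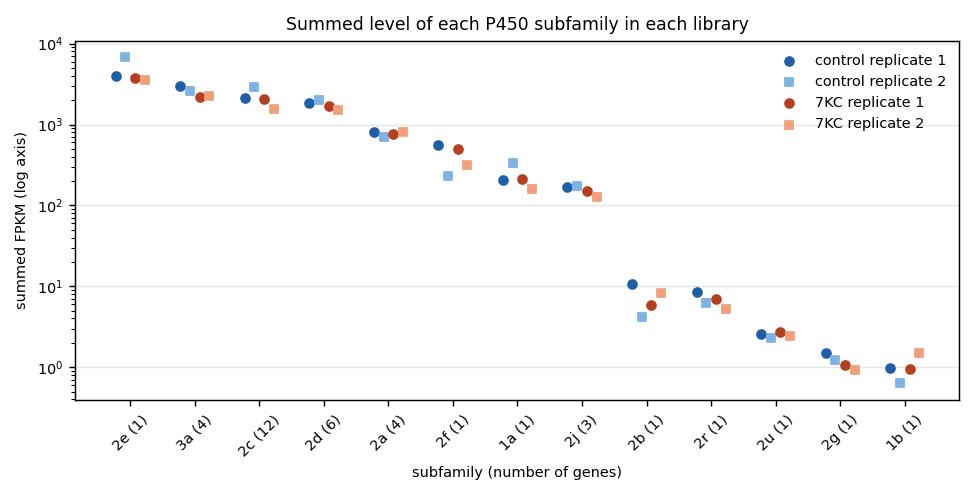
Summed FPKM (log axis) of each P450 subfamily in each library, with the number of genes in parentheses, circles for replicate 1 and squares for replicate 2 of the control group (blue) and the 7KC group (red). In subfamilies 2e, 3a, 2c, 2d, 2j and 2g both 7KC points lie below both control points, and in 2a, 2f, 1a, 2b, 2r, 2u and 1b they overlap.

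Single-gene subfamilies with overlap included Cyp2b10, the classical CAR target, at 10.8 and 4.23 FPKM in the control group and 5.79 and 8.17 FPKM in the 7KC group. The ratio of its means was 0.929 while the fitted log2 change was 0.01 (SE 0.43), so the direction depended on the scale. Cyp2f2, which activates naphthalene and is known from periportal hepatocytes and airway club cells, had 553 and 228 FPKM against 492 and 318 FPKM (0.16, SE 0.45, limma adjusted p = 0.887), and without control replicate 2 its change was −0.48. Cyp2r1, the vitamin D 25-hydroxylase, had 8.57 and 6.18 FPKM against 6.93 and 5.18 FPKM (−0.26, SE 0.21). Cyp2u1, a fatty acid hydroxylase, had 2.57 and 2.27 FPKM against 2.74 and 2.41 FPKM (0.07, SE 0.15). Cyp2g1, best known from the olfactory mucosa, did not overlap, at 1.48 and 1.23 FPKM against 1.06 and 0.92 FPKM (−0.31, SE 0.18, limma adjusted p = 0.414).

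Read by known regulators, the 8 P450 members that respond to CAR or PXR (Cyp2b10, Cyp2c29, Cyp2c37, Cyp2c50, Cyp2c54, Cyp2c55, Cyp3a11 and Cyp3a13) summed to 4113 and 4272 FPKM in the control group, compared with 3213 and 2978 FPKM in the 7KC group. Of them 7 had a fitted change below 0 (median −0.28) and 5 did not overlap, all lower, as did 53.9% and 27.4% of all genes. The 14 CAR and PXR targets outside the P450s, among them conjugating enzymes and transporters, split the other way, with 9 above 0 (median 0.32), 7 without overlap above and 4 below. Of all genes, 25.1% lay above and 27.4% below without overlap. Of the 14 targets, 12 were lower in control replicate 2 than in control replicate 1, so the control means depended on that library. Gsta1, a glutathione transferase, had 2.96 and 1.33 FPKM in the control group and 8.18 and 7.78 FPKM in the 7KC group (log2 change 1.75, SE 0.31, limma adjusted p = 0.0742). Slco1a4, an uptake transporter, had 21.6 and 17.4 FPKM against 10.8 and 11.1 FPKM (−0.80, SE 0.14, limma adjusted p = 0.0742), and Ces2a, a carboxylesterase, had 170 and 164 FPKM against 136 and 104 FPKM (−0.48, limma adjusted p = 0.227). None of the 14 passed the test. Of 3 Ahr-responsive P450 genes 2 were members, Cyp1a2 and Cyp1b1, and their fitted changes had opposite signs. Among 4 tested Ahr targets outside the P450s (1 above 0, 3 below, none past the test), Nqo1, a quinone reductase, had 4.76 and 4.08 FPKM against 6.33 and 6.29 FPKM (0.47, limma adjusted p = 0.168). The glucuronosyltransferases Ugt1a6a (−0.17, limma adjusted p = 0.477) and Ugt1a6b (−0.12, limma adjusted p = 0.754) share exons with their locus neighbors, and both had changes above 0 when libraries were scaled to the same sum.

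The receptors themselves were measured at low to moderate levels. Of 7 genes for xenobiotic receptors and their partners, 4 had a change above 0 and 3 below, 2 and 3 of them without overlap, and none passed the test. Without overlap, 25.1% of all genes were higher and 27.4% lower. PXR (Nr1i2) had 35.0 and 30.4 FPKM in the control group and 27.1 and 25.9 FPKM in the 7KC group (log2 change −0.30, SE 0.12, limma adjusted p = 0.291). CAR (Nr1i3) had 43.0 and 39.7 FPKM against 35.1 and 55.4 FPKM (0.09), with overlap. Ahr had 5.59 and 5.21 FPKM against 5.58 and 6.51 FPKM (0.15), also with overlap. Arnt, the DNA-binding partner of Ahr, had 9.32 and 9.64 FPKM against 11.8 and 11.0 FPKM (0.25, limma adjusted p = 0.319).

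All 5 genes for redox partners had a change below 0 (median −0.29), 3 of them without overlap, and none passed the test. A change below 0 was found in 53.9% of all genes, and 27.4% were lower without overlap. Por, the P450 reductase, had 465 and 528 FPKM in the control group, compared with 386 and 407 FPKM in the 7KC group (log2 change −0.32, SE 0.14, limma adjusted p = 0.313). Cyb5a, whose cytochrome b5 can pass a second electron, had 1514 and 1830.2 FPKM against 1374 and 1199 FPKM. Cyb5b, which encodes a related cytochrome b5, had 70.1 and 60.1 FPKM against 57.4 and 49.2 FPKM.

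Heme supply genes differed in direction. Alas1, the rate-limiting enzyme of heme synthesis, had 177 and 178 FPKM in the control group and 301 and 241 FPKM in the 7KC group (log2 change 0.60, SE 0.15, limma adjusted p = 0.141), and with libraries scaled to the same sum it passed the test (0.81, limma adjusted p = 0.0299). Among later enzymes of the pathway, Urod and Fech were lower without overlap, while Uros, Cpox and Ppox overlapped. Urod had 57.6 and 63.1 FPKM against 44.3 and 46.7 FPKM (−0.40, limma adjusted p = 0.170) and Fech, the ferrochelatase, 72.0 and 75.8 FPKM against 59.3 and 53.9 FPKM (−0.38, limma adjusted p = 0.190). Of the 8 heme synthesis genes, 2 had a change above 0 and 6 below (53.9% of all genes were below), and none passed the test. Of 4 heme breakdown genes 3 were above 0. Hmox1, the inducible heme oxygenase, had 49.3 and 48.0 FPKM against 60.6 and 85.4 FPKM (0.56, SE 0.18, limma adjusted p = 0.219). Blvrb (162 and 159 against 182 and 181 FPKM) did not overlap either, and Blvra did (13.2 to 14.4 against 13.4 to 17.1 FPKM). Hmox1 is also made by macrophages, whose markers were higher in the 7KC libraries as given above, and their part in its level was not tested.

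Of 14 transcription factors known to drive P450 genes in hepatocytes, 12 had a change below 0 (median −0.26), 7 of them without overlap, and none passed the test. The same held for 53.9% (below 0) and 27.4% (lower without overlap) of all genes. Hnf4a had 154 and 150.4 FPKM in the control group and 131 and 125 FPKM in the 7KC group (log2 change −0.25, SE 0.11, limma adjusted p = 0.321). Nr5a2 had 17.1 and 17.6 FPKM against 13.7 and 12.6 FPKM (−0.39, SE 0.11, limma adjusted p = 0.173), and Tef, a clock-controlled factor, 54.2 and 46.1 FPKM against 42.3 and 36.6 FPKM (−0.34, limma adjusted p = 0.289). Among 5 tested genes of growth hormone signaling and sex-biased expression, 4 had a change below 0. Ghr, the growth hormone receptor, had 199 and 208 FPKM against 185 and 151 FPKM (−0.28, limma adjusted p = 0.373). Stat5b, which carries the male-pattern signal, had 13.4 and 19.3 FPKM against 14.2 and 14.1 FPKM (−0.18, limma adjusted p = 0.649), and Stat5a 3.26 and 2.99 FPKM against 3.27 and 4.37 FPKM (0.24, limma adjusted p = 0.499). In all, 0 of the 61 tested genes of these 8 lists passed the test.

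The 2 control libraries differed widely from each other in several abundant members. Control replicate 2 had more Cyp2c70 (1.75 times control replicate 1), Cyp2e1 (1.72 times), Cyp1a2 (1.65 times), Cyp2c50 (1.45 times), Cyp2c29 and Cyp2c54 (1.42 times each) and Cyp2d9 (1.40 times). Without control replicate 2 the fitted log2 change was −0.12 for Cyp2e1, −0.15 for Cyp1a2, −0.17 for Cyp2c50, −0.10 for Cyp2d9 and −0.51 for Cyp2c29. Without control replicate 1 the same changes were −0.90, −0.87, −0.71, −0.59 and −1.02. Control replicate 2 had less Cyp2f2 (0.412 times), Cyp2b10 (0.392 times) and Cyp2a12 (0.594 times). Over the 37 members the median size of this log2 difference was 0.33, against a median size of the group change of 0.30 and of the difference between the 7KC libraries of 0.25. The control difference exceeded the group change in 22 members (59.5%, against 44.3% of all tested genes), and the 7KC difference did so in 20 (54.1%, against 45.3%).

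Zonation markers outside the P450s differed in the same libraries. Of 9 pericentral markers, 8 were higher in control replicate 2 than in control replicate 1, with sums of 1241 and 1547 FPKM in the control and 1227 and 1251 FPKM in the 7KC libraries. Of 9 periportal markers, all were lower in control replicate 2, with sums of 7163 and 4730 FPKM in the control and 5244 and 4361 FPKM in the 7KC libraries, and all were lower in 7KC replicate 2 than in 7KC replicate 1. Neither list had a gene past the test between the groups. The labels do not say which part of the liver was taken, and the part of zonation in the differences between P450 genes was not tested.

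**Figure D5:**
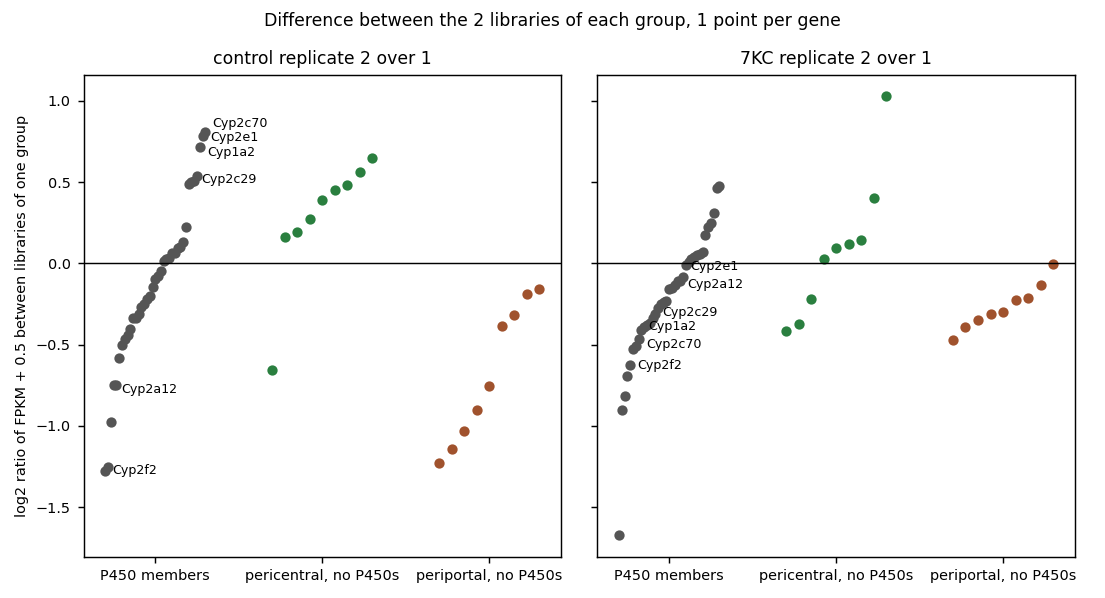
Log2 ratio of FPKM + 0.5 of replicate 2 over replicate 1 within the control group (left) and the 7KC group (right), 1 point per gene, for the 37 P450 genes (gray), 9 pericentral markers (green) and 9 periportal markers (brown) that are not P450s. On the left Cyp2c70, Cyp2e1 and Cyp1a2 lie at the top of the P450 points with 8 of 9 pericentral markers above 0, while Cyp2f2 lies at the bottom and all periportal markers are below 0.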

How the data were processed

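Liver RNA was sequenced from 4 samples, 2 per group, grouped by their labels. Per the labels and the study's methods, the authors made stranded messenger RNA libraries, sequenced single-end reads of 75 bases and aligned them to mm10. The submitters' processing notes name TopHat2 2.1.1, Bowtie2 2.2.8, SAMtools 0.1.18 and Cuffdiff 2.2.1, and the study's methods name Cufflinks for the FPKM and other versions of the aligners and SAMtools. The gene annotation and the treatment of multi-mapped reads are not given in the sources used here. The authors deposited FPKM, with 1 value for each symbol in each library. FPKM is relative to all mapped reads, so a change in abundant genes moves the others.

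The 12299 genes averaging 0.5 FPKM or more across libraries were fitted as log2(FPKM + 0.5) with limma 3.58.1 in R 4.3.3 (lmFit, eBayes with a trended prior variance), with group as the only term and Benjamini-Hochberg adjustment over all genes. This scale understates changes of low genes. There were 2 residual degrees of freedom, and 3.27 from the prior. Subfamily sums were compared by a 2-sided exact permutation test over the libraries, whose smallest p is 0.333 with 3 splits. No count model was used. Depth was estimated from low values of single-transcript genes with GENCODE M21 lengths, and reads served only to describe depth. Promoters came from RefSeq (GRCm38.p6).

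Named members were those past the threshold, the 10 largest changes in each direction among genes without overlap, the 12 most abundant and the best known of each subfamily. From each list of pathway genes, the 3 with the smallest p were named, except 1 gene that is not reported here. Other members and some other list genes, CAR and Ahr among them, are named for completeness, after their values were seen. The members, lists, tests and alternatives were chosen with earlier results of these data known. The alternatives were other pseudocounts, filters, scalings and variance priors, a replicate block, and leaving out each library.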

Additional observations from a re-analysis of the deposited data

How the results depend on the processing

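No P450 member passed the test under any of 15 alternatives, with adjusted p of 0.0666 or more, and every leave-one-out fit left 1 group with a single library, assumed to vary like the other. The 2 libraries per group and the depth limit what can be seen, most of all for members near 1 FPKM.

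Over all genes, 59 passed higher and 3 lower. The counts were 111 higher with a pseudocount of 1 FPKM, 0 higher and 1 lower with no filter, 39 and 1 without a trended prior, 94 higher with median-ratio scaling and 398 and 7 with libraries scaled to the same sum. They ranged from 2 to 389 higher and from 1 to 52 lower when 1 library was left out, the highest of both without control replicate 1. Pathway genes past the test numbered 2 with the same sum (Alas1 and Gsta1) and 0 to 2 with 1 library left out (Gsta1 and Gsta2 without control replicate 1). Members without overlap numbered 7 lower and 4 higher with the same sum and 0 higher at a minimum of 5 FPKM, and 18 to 25 lower and 1 to 10 higher with 1 library left out (37.5% to 41.9% and 33.7% to 37.3% of all genes). At a minimum of 5 FPKM, Cyp2a22 (mean 1.55 FPKM), the member with higher 7KC libraries without overlap, was left out. Fewer libraries also overlap less often. Other causes were not tested.

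The labels number the libraries, but same-numbered libraries did not deviate together (correlation of deviations −0.141). A replicate block left 0 genes higher and 0 lower past the test, and no member. The crossed pairing, added after the data were seen, gave 551 higher and 37 lower, with 0 members and 2 pathway genes.

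Log2 ratios of subfamily sums turned sign for 2a with 1 library left out (−0.0599 to 0.155), 2b with the same sum (0.122) and with 1 left out (−0.629 to 0.722), 2f with 1 left out (−0.448 to 0.830) and 2u under quantile normalization (−0.0813) and with 1 left out (−0.00657 to 0.179). Of the members 23 had a change below 0 with the same sum, against 28. Among named genes, fitted changes turned sign with the same sum in Cyp2d26 (0.0493), Cyp3a13 (0.00658), Stat5b (0.0187), Ugt1a6a (0.0289) and Ugt1a6b (0.0855), and under quantile normalization in Cyp2b10 (−0.0368) and Cyp2u1 (−0.0723). With 1 library left out they ranged from −0.27 to 0.48 for Cyp2a12, −0.0826 to 0.142 for Cyp2a5, −0.61 to 0.64 for Cyp2b10, −0.65 to 0.16 for Cyp2c70, −0.48 to 0.79 for Cyp2f2, −0.00356 to 0.149 for Cyp2u1, −0.431 to 0.0340 for Cyp3a13, −0.0370 to 0.300 for Blvra, −0.436 to 0.0735 for Stat5b and −0.34 to 0.10 for Ugt1a6b.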

Other observations

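Among symbols of the same families that were not members, Cyp2d37-ps, marked as a pseudogene, had 34.5 and 65.8 FPKM in the control group, compared with 31.6 and 35.3 FPKM in the 7KC group. Its values overlapped between the groups. Cyp2d12 lay below the minimum with a mean of 0.466 FPKM, at 0.329 and 0.153 FPKM in the control group, compared with 0.770 and 0.612 FPKM in the 7KC group, without overlap and without a test.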
